A study of Mus musculus with 36 samples.

Results

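The SpCas9 ChIP peaks described here are the 229 that the authors called in mouse hypothalamus with an antibody against Streptococcus pyogenes Cas9. They are all 92 peaks of the list from animals with the promoter sgRNA and all 137 peaks of the list from animals with the enhancer sgRNA, out of 822 peaks in the 6 lists of the series. Peaks of the 2 lists that overlapped by at least 1 bp were taken as the same site. Each was described by the fold enrichment and pileup that the authors gave it and by the RNA of the genes beside it.

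In CRISPR activation, a Cas9 that binds DNA without cutting it carries a transcriptional activator to the place its guide RNA pairs with. Pairing needs an adjacent motif (NGG for S. pyogenes Cas9) and tolerates mismatches far from that motif, so chromatin immunoprecipitation of Cas9 also recovers other sites. Sim1, the gene both guides aim at, encodes a transcription factor of the paraventricular nucleus, the hypothalamic centre that restrains food intake.

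The study made RNA-seq and Cas9 ChIP-seq libraries to look at target binding, activation and other bound sites. The promoter sgRNA list comes from 2 ChIP libraries of adult females and the enhancer sgRNA list from 2 ChIP libraries of pooled adult males and females, all Sim1 +/- on a B6/FVB background. RNA came from the hypothalamus of 6 promoter sgRNA animals (4 females and 2 males, 3 to 9 months old), 4 enhancer sgRNA animals (2 females and 2 males, 3 to 7 months old) and 4 Sim1 heterozygous animals without an sgRNA (3 females and 1 male, 4 to 9 months old). All were Sim1 +/-, and all but Sim1 heterozygous F_3, a B6 animal, were B6/FVB. A further 5 wild-type libraries (4 females and 1 male, 3 to 9 months old, B6/FVB except the B6 animal F_2) entered the statistical fit only, where they share the estimate of the spread. Which cells carry the Cas9 activator was not given in the sources used here, and ChIP libraries without an sgRNA were not analysed here. Fewer cells of a type and less RNA per cell cannot be told apart in such bulk samples.

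None of the 10 hypothalamic neuropeptide genes of the marker list was at 0 in all 19 libraries. Their summed levels were 20488 to 78642 normalized counts in promoter sgRNA, 28781 to 67004 in enhancer sgRNA and 37912 to 98914 in Sim1 heterozygous animals. Xist and Ddx3y matched the labelled sex in 19 of 19 libraries. Recovered depth ran from 14.1 to 56.5 M reads in promoter sgRNA, 14.6 to 52.9 M in enhancer sgRNA and 19.4 to 48.0 M in Sim1 heterozygous libraries. Choroid plexus genes ranged from 1425 to 38986 summed normalized counts in promoter sgRNA animals, against 1073 to 1753 in enhancer sgRNA and 1403 to 2294 in Sim1 heterozygous animals. Blood genes ranged from 2701 to 6538, from 3072 to 7461 and from 5939 to 19995 in the same order of groups. Thalamus genes ranged from 2634 to 12895, from 2295 to 21006 and from 2586 to 6998 in that order. Striatum genes ranged from 2037 to 16248, from 2187 to 9827 and from 2195 to 20186. The part of any of these marker lists in the expression results was not tested.

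The next 3 sequences show what lay under sites that both lists held. RefSeq promoter windows (GRCm38.p6) ran from 250 bases before to 50 after a gene's start. Windows of 7 genes were overlapped by the promoter list and of 7 genes by the enhancer list, 6 of these genes by both. Only the windows of Klk6 and Med16 held the summits. No Sim1 window was among those overlapped, although the RefSeq start of Sim1 (50894698) lies inside the 5′ peak of both lists. The windows used thus held none at that start. The window of A230054N11Rik, the non-coding gene that starts opposite Sim1, is shown because it reaches from the authors' Sim1 start into the 5′ peak. It lies on the minus strand (chr10:50894485-50894784), and its 231 capitals are the bases inside the peak of both lists. The Klk6 stretch (plus strand, chr7:43824474-43824593) and the Med16 stretch (minus strand, chr10:79909069-79909188) are shown because both lists placed the summit there, and capitals run from 10 bases before the first to 10 after the last of the 2 summits, except that the Klk6 stretch ends with its promoter window and so holds 19 capitals.
A230054N11Rik: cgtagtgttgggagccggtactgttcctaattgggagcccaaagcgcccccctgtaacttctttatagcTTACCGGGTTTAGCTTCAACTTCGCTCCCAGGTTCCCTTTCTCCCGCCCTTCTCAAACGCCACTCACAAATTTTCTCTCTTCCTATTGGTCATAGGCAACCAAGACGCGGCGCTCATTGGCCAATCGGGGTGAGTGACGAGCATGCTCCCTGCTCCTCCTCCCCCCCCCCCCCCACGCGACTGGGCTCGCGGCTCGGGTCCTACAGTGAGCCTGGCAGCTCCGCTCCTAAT
Klk6: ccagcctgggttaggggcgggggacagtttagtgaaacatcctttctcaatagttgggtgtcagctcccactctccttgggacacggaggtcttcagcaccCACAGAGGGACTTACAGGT
Med16: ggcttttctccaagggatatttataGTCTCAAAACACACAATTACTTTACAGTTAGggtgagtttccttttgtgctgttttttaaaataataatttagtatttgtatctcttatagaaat
The motif NGG, counted at every start on both strands with overlaps, occurred 64 times in the A230054N11Rik window, 58 times in the Klk6 window and 31 times in the Med16 window. The median over 32851 windows of 300 bases was 48, and every window held the motif, so its presence does not set these windows apart. The guide sequences were not used here, and no match to a guide was sought.

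Within 1 Mb of Sim1, each list held 2 peaks, and both were shared. The first lay at the 5′ end of Sim1. In the promoter sgRNA list it spanned chr10:50893924-50894717, ending 37 bp before the Sim1 start of the authors' annotation (50894754), with a pileup of 248 and a fold enrichment of 175. In the enhancer sgRNA list it spanned chr10:50893924-50894715, with a pileup of 252 and a fold enrichment of 134. The RefSeq start of Sim1 (50894698) lies inside this peak in both lists, so the gap depends on the annotation. The second lay past the 3′ end of Sim1. It spanned chr10:51257361-51258161 in the promoter sgRNA list, 268209 bp beyond that end, with a pileup of 256 and a fold enrichment of 180.1, and chr10:51257358-51258162 in the enhancer sgRNA list, with a pileup of 268 and a fold enrichment of 143. Each guide's list therefore held a strong peak at both Sim1 sites. The fold enrichments, pileups and q-values are the authors' per peak, with 1 value per list and no replicate spread, so no difference between lists was tested.

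The distal site stood above the 5′ site within each list by a small margin: 180.1 against 175 in the promoter sgRNA list and 143 against 134 in the enhancer sgRNA list. The order was thus the same with either guide. Ranked by fold enrichment, the distal and 5′ sites were 2nd and 4th of 92 in the promoter sgRNA list, and 2nd and 3rd of 137 in the enhancer sgRNA list. Both sites were also peaks in all 4 other lists of the series, at pileups of 192 to 267 and fold enrichments of 38 to 130.4. Among those lists, the 5′ site led only in the promoter sgRNA list of Neuro2A, a mouse neuroblastoma line (fold enrichment 58.1 for the 5′ site against 43.2 for the distal site).

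**Figure D1:**
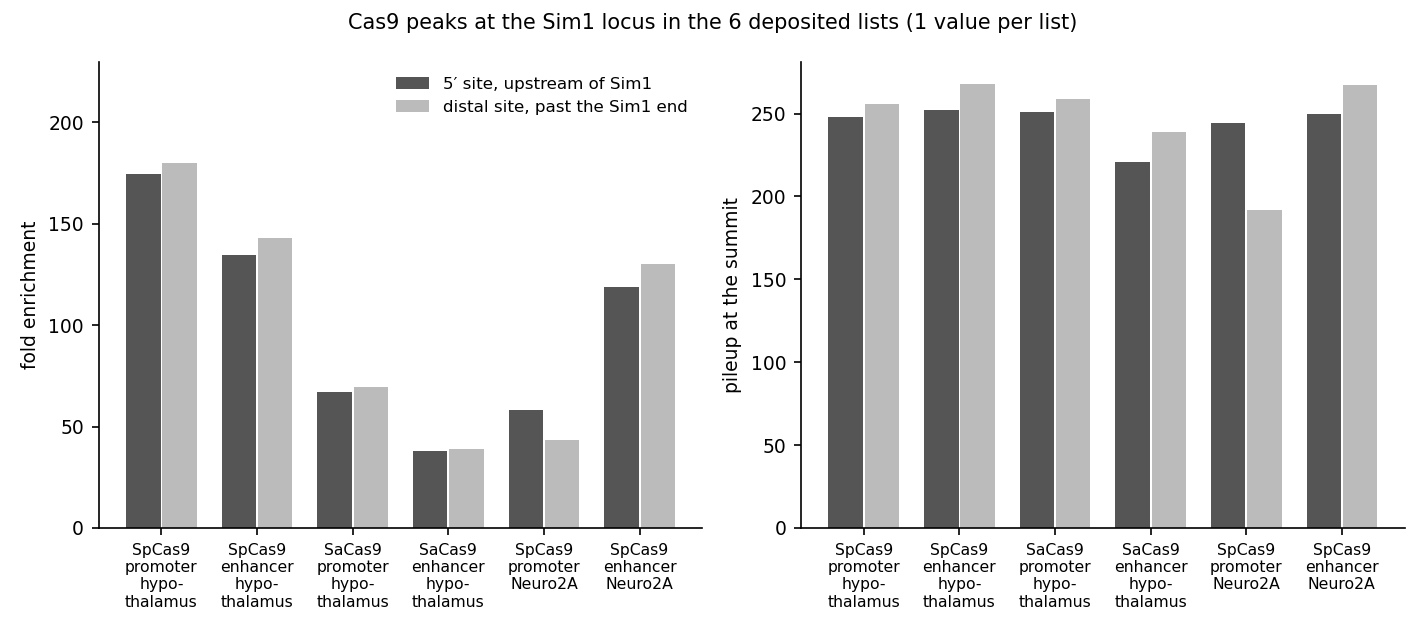
Fold enrichment (left axis) and pileup (right panel) of the 5′ and distal Sim1 sites in each of the 6 deposited lists, 1 bar per site and list. Pileups of both sites lay between 192 and 268 in all lists, and the 2 SpCas9 hypothalamus lists had the highest fold enrichments, 134 to 180.1.

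The site of highest fold enrichment in both lists was not at Sim1. It spanned chr14:15657551-15658482 in the promoter sgRNA list (fold enrichment 266, pileup 378) and chr14:15657554-15658482 in the enhancer sgRNA list (fold enrichment 200.2, pileup 376). The nearest gene, B230110C06Rik, lay 205106 bp away, followed by Lrrc3b at 218564 bp, and neither passed the test between promoter and enhancer sgRNA animals (log2 fold change 0.04, SE 0.34, and 0.02, SE 0.12). The next strong site, chr5:24860753-24861545, lay 1199 bp from Prkag2, a regulatory subunit of the energy-sensing AMP-activated kinase. It had a fold enrichment of 175 and a pileup of 259 in the promoter sgRNA list, against 99.4 and 199 in the enhancer sgRNA list. It overlapped no peak of the 4 other lists, unlike the Sim1 sites. Further shared sites over a fold enrichment of 60 in the promoter sgRNA list lay near 9230104L09Rik (117 in the promoter sgRNA list, 91.9 in the enhancer sgRNA list), in Tead1, a transcription factor of the Hippo pathway (90.5 and 63.4), near Gm29629 (69.4 and 42.1) and beside Cyp7b1, an oxysterol hydroxylase (63.2 and 32.8).

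Nearly the same number of peaks was shared in each list, so the percentages differ with the lengths of the lists. In the promoter sgRNA list 70 of 92 peaks (76.1%) overlapped a peak of the enhancer sgRNA list, and in the enhancer sgRNA list 69 of 137 (50.4%) overlapped one of the promoter sgRNA list. The 2 lists made 71 overlapping pairs, 66 of them one-to-one. Summits of these 66 lay a median of 6.5 bp apart, 52 pairs within 20 bp and the widest 358 bp, and the smallest overlap of any pair was 298 bp. Most one-to-one sites thus had nearly the same summit under both guides. Among the other pairs, in which a peak of one list overlapped several of the other, summits lay up to 2567 bp apart.

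Sites of high enrichment were shared. All 30 peaks of highest fold enrichment in the promoter sgRNA list and all 22 of highest fold enrichment in the enhancer sgRNA list had a partner. At a fold enrichment of at least 20, 26 of 26 peaks of the promoter sgRNA list and 27 of 28 of the enhancer sgRNA list were shared. At a fold enrichment of at least 10, the counts were 50 of 53 and 48 of 58. The median fold enrichment in the promoter sgRNA list was 16.0 for shared peaks (range 1.99 to 266) and 5.30 for peaks of that list alone (1.68 to 17.1). In the enhancer sgRNA list it was 16.5 for shared peaks (2.35 to 200.2) and 6.90 for peaks of that list alone (1.57 to 29.2). A peak missing from a list may have been enriched below the authors' threshold, which was not given in the sources used here.

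Pileup did not order the classes as fold enrichment did. The median pileup in the promoter sgRNA list was 28.5 for shared peaks and 79.5 for peaks of that list alone, and in the enhancer sgRNA list 37 and 22. The promoter sgRNA value turned on peaks that all 4 other lists also held. Without them the medians were 24 for shared and 12 for promoter-only peaks, and on placed chromosomes alone they were 27 and 21.

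**Figure D2:**
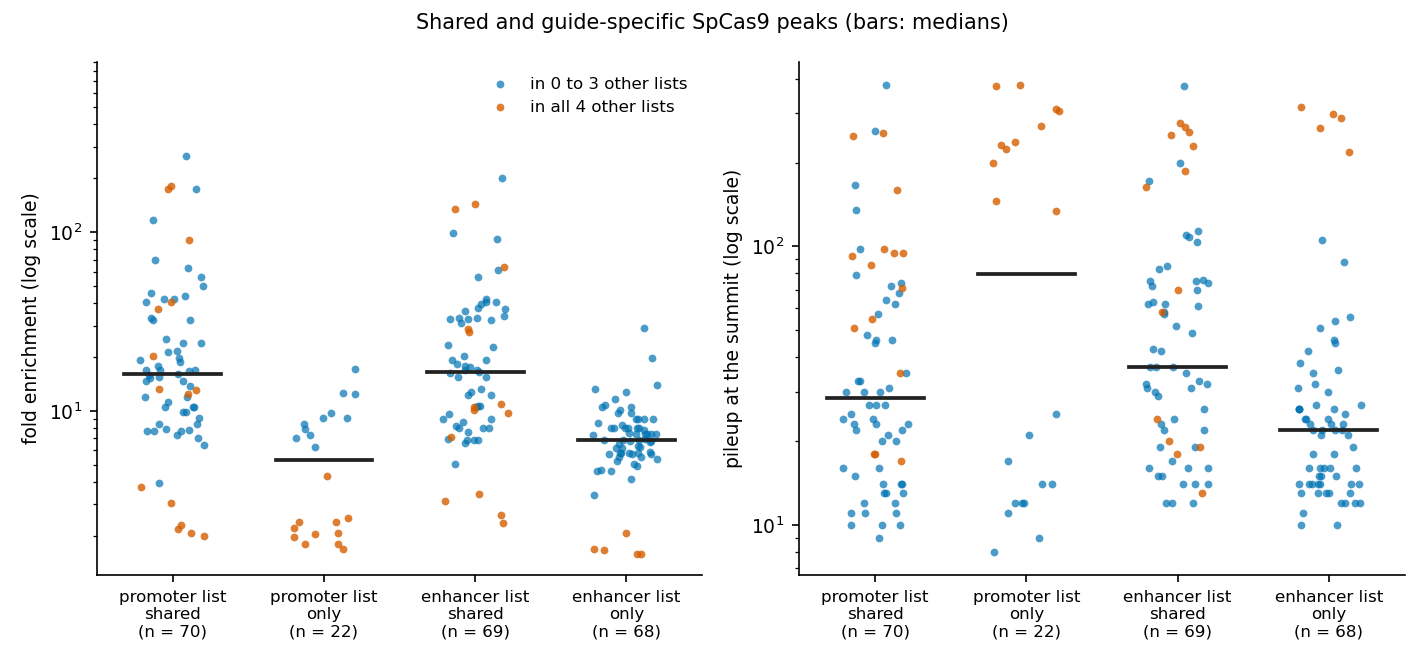
Fold enrichment (left) and pileup (right), both on log scales, of every peak by class, with the median as a bar and peaks found in all 4 other lists in orange. Guide-specific peaks lie lower in fold enrichment (medians 5.30 and 6.90) than shared peaks (16.0 and 16.5), and the orange promoter-only peaks combine pileups of 134 to 380 with fold enrichments of at most 4.30.

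The 66 one-to-one sites kept much of their order between guides. Across sites Spearman's rho was 0.768 for fold enrichment and 0.767 for pileup, a description over sites that share libraries and background, and 8 of the 10 highest sites were common to both lists. The ratio of fold enrichments, promoter over enhancer sgRNA list, had a median of 1.13 and ran from 0.247 to 2.64. Fold enrichment was higher in the promoter sgRNA list at 38 sites and in the enhancer sgRNA list at 28, whereas pileup was higher in the promoter sgRNA list at 17 sites, in the enhancer sgRNA list at 48 and equal at 1. The direction of the average difference between lists thus depends on which of the authors' measures is read.

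A difference of at least 2-fold in fold enrichment occurred at 12 of these sites. The authors' scores are comparable within a list only, so a ratio of 1 need not mean equal binding. At the shared site in Fam83d, for example, both lists had a pileup of 18, but fold enrichments of 13.3 (promoter sgRNA list) and 10.1 (enhancer sgRNA list). The 5 with the higher value in the promoter sgRNA list included sites in or beside Tgm6, a transglutaminase (23.8 in the promoter sgRNA list, 9.03 in the enhancer sgRNA list), Hivep2, a zinc finger transcription factor (40.7 and 16.5), Kcnj6, a G-protein-gated potassium channel (15.4 and 6.90) and Wnk4, a kinase of ion transport (16.7 and 8.26). The 7 with the higher value in the enhancer sgRNA list lay in or beside Cadps2, which primes dense-core vesicles for release (8.41 in the promoter sgRNA list, 34.0 in the enhancer sgRNA list), Rcn1 (16.8 and 61.1, 66519 bp away), Ano2 (7.36 and 19.3), Stau1 (7.76 and 17.8), Acss3 (10.5 and 22.8), Prkar1b (9.81 and 20.2) and Utrn (16.1 and 32.9). All 12 were peaks in both lists, so these are differences of degree in the authors' scores. One shared site lay within Lepr, the leptin receptor gene (chr4:101737292-101737853 in the promoter sgRNA list), with a fold enrichment of 10.5 in the promoter sgRNA list and 9.56 in the enhancer sgRNA list.

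**Figure D3:**
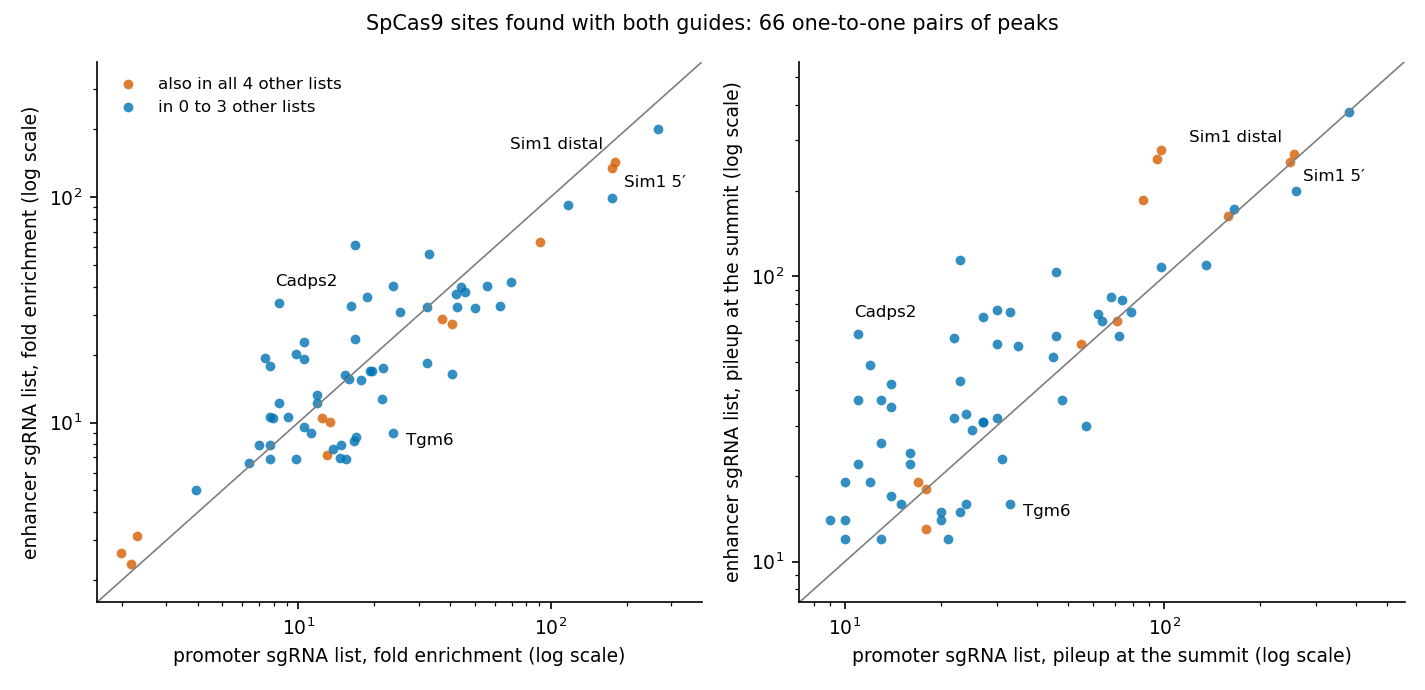
Fold enrichment (left) and pileup (right) of the 66 one-to-one sites, promoter sgRNA list on the x axis and enhancer sgRNA list on the y axis, both log scales, with the line of equal values. Sites scatter about the line at a rho of 0.768 and 0.767, more of them above the line in pileup (48) than in fold enrichment (28).

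In the promoter sgRNA list, 46 of 70 shared peaks (65.7%) and 8 of 22 promoter-only peaks (36.4%) lay in a gene body of the authors' annotation. In the enhancer sgRNA list the counts were 45 of 69 (65.2%) for shared and 31 of 68 (45.6%) for enhancer-only peaks. These shares were not tested. Few lay at gene starts. A summit stood within 1 kb of a start for 8 shared and 2 promoter-only peaks of the promoter sgRNA list, and for 7 shared and 8 enhancer-only peaks of the enhancer sgRNA list. The 3 peaks of the promoter sgRNA list at Def8 were assigned to that gene because the authors' Def8 starts at 123423527, but the RefSeq gene starts at 123442956, past all of them, so that assignment depends on the annotation.

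The 22 promoter-only peaks fell in 2 kinds. Of these, 11 were peaks in all 4 other lists, with fold enrichments of 1.68 to 4.30 and pileups of 134 to 380. They lay near the start of chromosome 9 (3 peaks), elsewhere on chromosome 9, on chromosome 14 near 19.4 Mb, on unplaced scaffolds (3 peaks) and on chromosome 2 at Gm10801 and Gm10800 (chr2:98662128-98663038 and chr2:98666398-98667409), both predicted genes. Among the lists of the series these 11 sites were absent from the enhancer sgRNA list of SpCas9 hypothalamus alone. The other 11 had fold enrichments of 6.31 to 17.1 and pileups of 8 to 25, and 9 of them were in no other list. They included a peak at Def8 (chr8:123432993-123434046, fold enrichment 17.1, pileup 25), which 3 other lists also held, and a peak in Kcnk13, a potassium channel subunit (chr12:100003319-100003881, 12.4, 21), which none held. The Def8 peak lay only 647 bp from a peak of the enhancer sgRNA list, beside Def8 peaks that both lists held.

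The 68 enhancer-only peaks were mostly of the second kind. The 5 found in all 4 other lists were all mitochondrial, with fold enrichments of 1.57 to 2.07. The other 63 had fold enrichments of 3.36 to 29.2 and pileups of 10 to 105, and 50 of them were in no other list. The highest lay where Acss2 and Gss, genes of acetyl-CoA and glutathione synthesis, adjoin (chr2:155563318-155564038, fold enrichment 29.2, pileup 54). That site was also a peak in the promoter sgRNA list of SaCas9 hypothalamus (fold enrichment 7.07) and in the enhancer sgRNA list of Neuro2A (41.2). Others by q-value lay in Chrnb2, a nicotinic acetylcholine receptor subunit (chr3:89760028-89760753, 19.7, 36), Cdh8, a neuronal cadherin (chr8:99414310-99414888, 13.9, 46), and Auts2, a gene of neuronal development (chr5:131519473-131520032, 13.3, 26). The Chrnb2 and Auts2 peaks were in no other list, and the Cdh8 peak was also in the enhancer sgRNA list of Neuro2A. One lay 60635 bp from Axin2, a Wnt pathway inhibitor (chr11:109011418-109012208, 4.62, 88). Of the 4 other lists, 3 also held this site, among them the promoter sgRNA lists of SaCas9 hypothalamus and of Neuro2A. The enhancer sgRNA list alone held peaks on the X chromosome, 3 in number, with fold enrichments of 6.18 to 8.28. The promoter sgRNA ChIP came from females and the enhancer sgRNA ChIP from pooled males and females, and sex and guide cannot be told apart here.

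The remaining sites were also looked up in the Neuro2A lists. Of 55 shared peaks of the promoter sgRNA list that were not in all 4 other lists, 5 overlapped the promoter sgRNA list of Neuro2A and 18 its enhancer sgRNA list. Of 11 such promoter-only peaks the counts were 1 and 1, and of 63 such enhancer-only peaks 2 and 9. The Neuro2A lists differ in length, 127 peaks with the promoter sgRNA and 205 with the enhancer sgRNA, and the counts were not tested against each other.

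Gene expression was then read at the peaks. The genes of a peak were those it overlapped or, where there was none, the nearest within 100 kb. This gave 136 genes, of which 132 reached a mean of 1 normalized count: 65 near shared, 12 near promoter-only and 55 near enhancer-only peaks. Folds are on the scale log2(normalized count + 1), which understates changes of low genes. Limma was fitted to all 20505 genes with sex as a covariate, with Benjamini-Hochberg adjustment over all of them.

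Between promoter and enhancer sgRNA animals, 0 of 132 genes near peaks passed an adjusted p of 0.05 (background 0.0% of all genes). At an unadjusted p below 0.05 there were 2 of 132 (1.52%), against a background of 2.44%. They were 1 higher gene (background 1.36%) and 1 lower gene (background 1.09%). The count was 1 without enhancer sgRNA M_1, 5 without promoter sgRNA F_1 and 4 without promoter sgRNA F_3. The median log2 fold change was -0.01 near peaks and -0.01 over all genes. By class it was -0.02 near shared, -0.04 near promoter-only and 0.00 near enhancer-only peaks. EdgeR and DESeq2 on the recovered reads also called 0 of these genes, with 2 and 1 at an unadjusted p below 0.05.

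Sim1 was measured in each animal. It stood at 316 and 159.8 normalized counts in promoter sgRNA males M_1 and M_3, and at 431, 190.1, 155 and 227 in promoter sgRNA females F_1, F_2, F_3 and F_5. Enhancer sgRNA males M_1 and M_3 had 272 and 287, and enhancer sgRNA females F_1 and F_2 had 287 and 353. The 4 enhancer sgRNA animals all lay inside the range of the promoter sgRNA animals, whose spread was wider. The means were 246 ± 108 (SD, n = 6) with the promoter sgRNA and 299.9 ± 36.1 (SD, n = 4) with the enhancer sgRNA, a difference of -53.4 (promoter minus enhancer; two-sided exact permutation p = 0.381 over 210 splits, the smallest possible being 0.0048). Sim1 heterozygous animals had 236 normalized counts in male M_1 and 329.9, 158 and 121 in females F_1, F_3 and F_4, a mean of 211 ± 92.7 (SD, n = 4), which overlapped both sgRNA groups. Ascc3, 42439 bp from the 5′ site, had a log2 fold change of -0.04 (SE 0.19) between promoter and enhancer sgRNA animals. The gene nearest the distal site was Lilrb4a, 222451 bp away and closer than Sim1. It had a log2 fold change of -0.56 (SE 0.72) in the same comparison, at a mean of 5.11 normalized counts over all libraries.

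The pair of genes under the unadjusted threshold both lay at shared sites. Fam83d, a spindle-associated protein whose gene holds a site of fold enrichment 13.3 in the promoter sgRNA list and 10.1 in the enhancer sgRNA list, stood at 66.2 to 101.2 normalized counts in promoter sgRNA animals (median 79.1) and at 58.3, 53.3, 41.9 and 66.9 in enhancer sgRNA animals. The groups overlapped only through promoter sgRNA F_2 and enhancer sgRNA M_3, and the log2 fold change was 0.61 (SE 0.23, unadjusted p = 0.0172, limma adjusted p = 0.999). Med16, a subunit of the Mediator complex whose promoter stretch is printed above, stood at 1068 to 1516 normalized counts in promoter sgRNA animals (median 1428) and at 1596, 1692, 1436 and 1658 in enhancer sgRNA animals. Its log2 fold change was -0.22 (SE 0.10, unadjusted p = 0.0462, limma adjusted p = 0.999), promoter sgRNA M_1 held the lowest value, and the groups overlapped through enhancer sgRNA M_1. The next smallest p-values belonged to Rn7s6, mt-Tm and mt-Tl1, short or mitochondrial RNAs whose reads may be split among copies, with log2 fold changes of 1.81 (SE 0.89), 0.95 (SE 0.52) and 1.05 (SE 0.59). Rn7s6 was at 0 in all 4 enhancer sgRNA animals and at 53.2 in promoter sgRNA M_1, with the other promoter sgRNA animals at 0 to 5.9, so its fitted fold change depends on the added count of 1 and is no bound.

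Sites of higher fold enrichment in one list were then read against RNA. Over the 62 tested genes at 59 one-to-one sites, Spearman's rho between the log2 ratio of fold enrichments and the log2 fold change of RNA was -0.07, a description over genes that share the same animals. The 6 tested genes at sites at least 2-fold higher in the promoter sgRNA list had log2 fold changes of -0.28 to 0.09, promoter over enhancer sgRNA animals. The 7 at sites at least 2-fold higher in the enhancer sgRNA list had -0.19 to 0.34. Cadps2, at the site with the lowest ratio, had -0.02 (SE 0.17), and Tgm6, at the site with the highest, had -0.28 (SE 0.75). The 13 genes at sites of fold enrichment 40 or more in the promoter sgRNA list had a median of -0.13 and a range of -0.49 to 0.38. Klk6, a serine protease of oligodendrocytes whose start holds a summit, averaged 243 ± 93.1 (SD, n = 6) normalized counts with the promoter sgRNA and 223 ± 72.3 (SD, n = 4) with the enhancer sgRNA. Lepr averaged 107 ± 35.4 (SD, n = 6) and 115 ± 48.1 (SD, n = 4) in the same order.

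**Figure D4:**
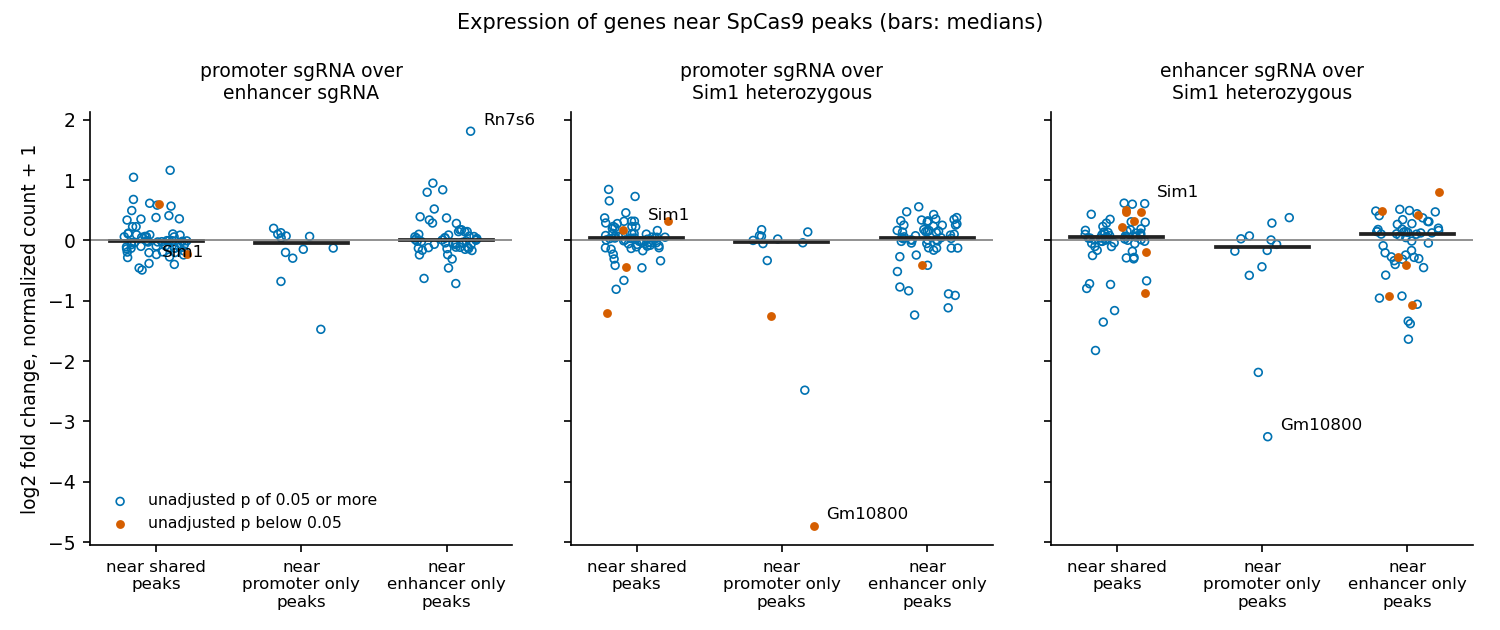
Log2 fold change of each gene near a peak by class of peak, for the 3 comparisons, with medians as bars and genes at an unadjusted p below 0.05 filled. Class medians lie between -0.12 and 0.11, and the farthest point is Gm10800 at -4.73 in promoter sgRNA over Sim1 heterozygous animals.

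Each guide was also compared with Sim1 heterozygous animals that carried no sgRNA. These comparisons share the same 4 control libraries, so their values are given side by side only. Of 75 tested genes near promoter-list peaks, 0 passed an adjusted p of 0.05 in promoter sgRNA over Sim1 heterozygous animals (background 0.0%), and 6 had an unadjusted p below 0.05 (8.0%, against a background of 4.08%), 2 higher (background 1.39%) and 4 lower (background 2.68%). Of 120 tested genes near enhancer-list peaks, 0 passed in enhancer sgRNA over Sim1 heterozygous animals (background 0.0%), and 14 had an unadjusted p below 0.05 (11.7%, against a background of 6.67%), 8 higher (background 2.9%) and 6 lower (background 3.77%). Medians were 0.03 and 0.07, against 0.00 over all genes in each. EdgeR and DESeq2 called 0 genes near peaks in both comparisons, with 5 and 5 at the unadjusted threshold for the promoter sgRNA and 18 and 16 for the enhancer sgRNA. The count of 14 rested on single libraries: it was 26 without Sim1 heterozygous F_1, 5 without Sim1 heterozygous F_3, 6 without enhancer sgRNA F_1, 6 without enhancer sgRNA F_2 and 9 without enhancer sgRNA M_3. The count of 6 fell to 3 without Sim1 heterozygous F_4, Sim1 heterozygous M_1, promoter sgRNA F_1 or promoter sgRNA F_5.

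With the enhancer sgRNA, the genes of smallest p included Vwf, Chrnb2, Lrsam1 and Axin2, each at a limma adjusted p of 0.678. Vwf, the clotting factor of endothelial cells, whose gene holds an enhancer-only peak, stood at 385 and 327 normalized counts in enhancer sgRNA males M_1 and M_3 and at 215 and 262 in females F_1 and F_2, against 422 in the Sim1 heterozygous male M_1 and 371, 328 and 328 in females F_1, F_3 and F_4. The groups overlapped through enhancer sgRNA M_1. Its log2 fold change was -0.41 (SE 0.16) there and -0.41 (SE 0.14) in promoter sgRNA over Sim1 heterozygous animals, where the list held no peak in Vwf. In the order F_1, F_2, M_1, M_3, Chrnb2 stood at 4532, 5569, 3729 and 4115 in enhancer sgRNA animals, against 4227, 2092, 3332 and 3372 in Sim1 heterozygous animals (F_1, F_3, F_4, M_1), of which F_3 was the lowest and F_1 overlapped the enhancer sgRNA range (log2 fold change 0.49, SE 0.20). Lrsam1, a ubiquitin ligase at a shared site, and Axin2 had log2 fold changes of 0.32 (SE 0.13) and 0.42 (SE 0.17), with overlapping groups. Prkag2, beside the strongest shared site with a gene other than Sim1, stood at 2174, 2103, 2100.1 and 2181 in enhancer sgRNA animals and at 2341, 2375, 2649 and 2432 in Sim1 heterozygous animals, without overlap (log2 fold change -0.19, SE 0.09, limma unadjusted p = 0.0412, adjusted p = 0.678), while the 6 promoter sgRNA animals spanned 2065 to 2497. How many of all genes lacked overlap between these groups was not counted.

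With the promoter sgRNA, the genes of smallest p were Gm11808, Emid1, Gm10800, Gm5614 and Stau1, each at a limma adjusted p of 0.934. Emid1, an extracellular matrix protein 13149 bp from a shared site of fold enrichment 42.4 in the promoter sgRNA list, stood at 87.3 to 118 normalized counts in promoter sgRNA animals (median 100.1) and at 146 in the Sim1 heterozygous male M_1 and 104.3, 176 and 132 in females F_1, F_3 and F_4. The groups overlapped through Sim1 heterozygous F_1 (log2 fold change -0.44, SE 0.18). Stau1, an RNA transport protein, had a log2 fold change of 0.17 (SE 0.08). Gm11808 and Gm5614 reached at most 14.2 and 6.2 normalized counts in Sim1 heterozygous animals, with log2 fold changes of -1.21 (SE 0.47) and -1.26 (SE 0.57).

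Gm10800, at a promoter-only peak, was the gene near a peak with the most uneven values. Promoter sgRNA males M_1 and M_3 held 7.4 and 0.0 normalized counts and females F_1, F_2, F_3 and F_5 held 0.0, 2.1, 2.0 and 0.0. The Sim1 heterozygous male M_1 held 3.1 and females F_1, F_3 and F_4 held 3.1, 13.7 and 34792. A single Sim1 heterozygous animal, F_4, thus carried almost all of the signal, and its neighbour Gm10801 was at 2765 in F_4 and at 0 in the other 3. The log2 fold change was -4.73 (SE 1.91, unadjusted p = 0.0226), and -1.60 without F_4 (unadjusted p = 0.182). In the authors' deposited table, Gm10800 was the 1 gene near a promoter-list peak, of 70 with a value, with a false discovery rate below 0.05 for the promoter sgRNA (9.34e-05), among 9 such genes in all. In the authors' deposited table for the enhancer sgRNA, 0 of 112 genes near enhancer-list peaks were below 0.05, and the smallest value belonged to Sim1 (log2 fold change 1.25, false discovery rate 0.0511). Sim1 had a log2 fold change of 0.467 and a false discovery rate of 0.9999 for the promoter sgRNA in the authors' deposited table. The headers name these deposited comparisons as sgRNA present versus absent, without naming the animals compared. They may thus differ from the limma comparisons with Sim1 heterozygous animals.

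In the limma fit, Sim1 had a log2 fold change of 0.23 (SE 0.29, adjusted p = 0.938) in promoter sgRNA and 0.61 (SE 0.32, adjusted p = 0.678) in enhancer sgRNA over Sim1 heterozygous animals. Exact permutation p-values, two-sided, were 0.629 over 210 splits and 0.171 over 70 splits. Of the 9 further genes of the Sim1 lineage or its output, 0 passed in any of the 3 comparisons, adjusted or at an unadjusted p below 0.05. Their median log2 fold change was 0.08 in promoter over enhancer sgRNA, 0.11 in promoter sgRNA over Sim1 heterozygous and 0.01 in enhancer sgRNA over Sim1 heterozygous animals. Oxt, which encodes oxytocin, varied among animals, with 1053 to 3112 normalized counts in promoter sgRNA animals (median 1413), 1300.0, 4065, 209 and 2449 in enhancer sgRNA animals, and 769, 1633, 858 and 439 in Sim1 heterozygous animals. None of the 9 lay near a SpCas9 peak.

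**Figure D5:**
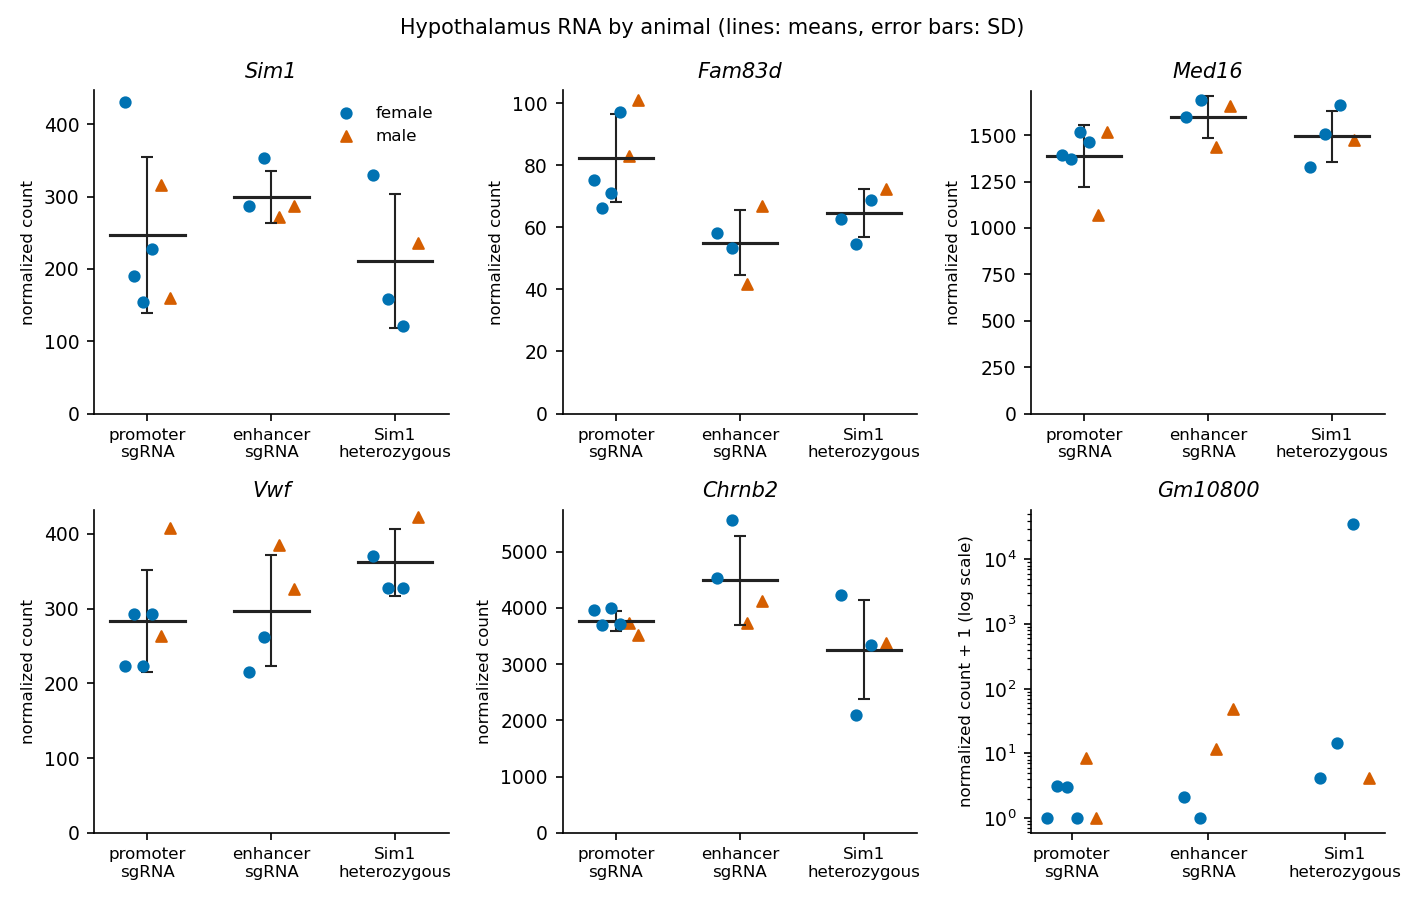
Normalized count of 6 genes near SpCas9 peaks in each animal (circles female, triangles male), with mean and SD, and Gm10800 as count + 1 on a log axis without a mean. Groups overlap for Sim1, Fam83d, Med16, Vwf and Chrnb2, and in Gm10800 Sim1 heterozygous F_4 stands at 34792.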

How the data were processed

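The gene table held normalized counts which, per the file headers, the authors deposited as a normalized signal per gene and library; low values were whole multiples of 1 step in 18 libraries (100% of low values), and these recovered reads entered edgeR 4.0.16 and DESeq2 1.42.0, without wild type F_4. Per the file headers the authors also deposited log2 stabilized values, log2 fold changes and p-values with a false discovery rate. For each peak the authors deposited a pileup signal, a fold enrichment ratio and a −log10 q-value, per the file headers. The submitters' processing notes name DESeq2 1.16.1, MACS2 2.1.1.20160309, STAR 2.5.2b and CASAVA 1.8, without their roles, and the build mm9. Coordinates match GRCm38: of 20231 genes matched to RefSeq by symbol, 99.9% overlapped. How ChIP replicates and inputs were combined was not given in the sources used here.

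Because values were normalized and not raw counts, the main test was limma 3.58.1 in R 4.3.3 on log2(normalized count + 1) with its trend option, genes with a mean of at least 1, sex as covariate, 19 libraries in 1 fit. It was also run on simulated counts with the same dispersion for every gene and changes set only in genes of higher counts. That run does not speak to low or uneven genes such as Gm10800 and Rn7s6. Labels do not state outright that each library is a separate animal, so p-values measure the spread between libraries. Shared reads, strand and multi-mapping are not stated. Alternatives changed the pseudocount, filter, covariates, libraries, distance to genes, overlap rule and test. The text names Sim1, every peak within 1 Mb of it, shared pairs, the 8 guide-specific peaks of highest q in each list, the 5 near genes of smallest p per comparison and 9 genes of the Sim1 lineage, apart from some items that are not reported here. The members and lists were chosen with earlier results of these data known. The genes within 500 kb of the strongest sites (Ascc3, Lilrb4a, Lrrc3b, B230110C06Rik) were singled out after values were seen.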

Additional observations from a re-analysis of the deposited data

Results flagged for a closer look

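Of 48 groups of libraries of genes near peaks with the smallest p-values and Sim1, 7 held a library farther from its neighbour than Dixon's 95% value allows, and chance flags about 1 in 20. Sim1 heterozygous F_4 stood at 34791.8 normalized counts of Gm10800, against 13.7 in the next library. Promoter sgRNA M_1 stood apart in 3 genes: 7.4 in Gm10800 (next 2.1), 53.2 in Rn7s6 (next 5.9) and 1067.6 in Med16 (next 1371). Promoter sgRNA M_3 had 2727.8 in Stau1 (next 2378.8), promoter sgRNA F_3 had 3.1 in Gm5614 (next 1.1), and enhancer sgRNA F_2 had 0.0 in Gm5614 (next 2.1).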

How the results depend on the processing

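No gene near a peak passed an adjusted p of 0.05 in any comparison under any alternative, the replicate block included (0 in each), and leaving out each library gave 0 throughout. Counts at an unadjusted p below 0.05 moved. For promoter over enhancer sgRNA (2) they were 1 in females or with DESeq2, 10 with only the groups compared, 4 with the replicate block, 7 with stabilized values, 6 without the B6 animals, 5 and 11 for genes within 10 and 100 kb, and 1 to 5 without each library. For promoter sgRNA over Sim1 heterozygous (6) they were 2 in females, 3 with only the groups compared, 2 with the replicate block, 11 within 100 kb and 3 to 7 without each library. For enhancer sgRNA over Sim1 heterozygous (14) they were 6 with only the groups compared, with stabilized values or without the B6 animals, 36 within 100 kb and 5 to 26 without each library. The cause was not tested, except that wider windows hold more genes. Same-numbered libraries correlated at -0.0116 to 0.193 over 9 pairs, 6 of them over 0.1 but not all. They share sex and in part age, and no label names a shared litter or day, so they were not taken as pairs. Sim1 kept its direction, -90.3 to -35.1 normalized counts without each library and -0.28 (log2) in limma with the replicate block. Among peaks at or above the median q-value, 34 of 46 in the promoter list and 35 of 70 in the enhancer list were shared. The promoter list's ratio of median pileups, shared over promoter-only, reversed to 1.61 for those peaks, 1.29 on placed chromosomes and 2.00 without peaks found in all 4 other lists, where its ratio of median fold enrichments was 1.83. Leaving out those peaks was chosen after seeing the data. The 15 genes of smallest p kept their direction in all 332 repeats. They were picked by p in the same libraries that the repeats fit again, so this is no independent support. One list per guide gives no replicate spread for any peak value.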
